A study of Homo sapiens with 18 samples.

Results

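The comparison described here sets a fusion of SRF with FOXO1 against SRF alone. It takes 6 of the 18 libraries of the series, namely the 3 labelled SRF-FOXO1 and the 3 labelled SRF, and all genes of the count table. All libraries come from MSC-hTERT, a human mesenchymal stem cell line kept dividing by telomerase (hTERT). Every group therefore shares the immortalized background, and all were grown in a serum-containing medium with FGF-2, ascorbic acid and heparin. The groups differ in the construct they express: SRF, SRF-FOXO1, the vector name pMSCV with no gene named (taken as the control), or one of the other fusions, SRF-ICA1L, SRF-PDGFRB and SRF-RELA. The labels do not say how many clones or separate infections stand behind a group, or whether its 3 libraries are separate cultures. The p-values then measure the spread between these libraries, which may be technical.

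SRF (serum response factor) is a DNA-binding protein that recognises a short A/T-rich element, the CArG box, through its MADS domain. Its output depends on partners. MRTF cofactors, released when actin polymerises, and myocardin drive contractile and cytoskeletal genes, while ternary complex factors such as ELK1 drive immediate early genes after growth factor stimulation. FOXO1 is a forkhead transcription factor held in the cytoplasm by AKT phosphorylation, and its carboxy-terminal part carries a strong activation domain. Fusions of the SRF DNA-binding part with other proteins are known from soft tissue tumours with muscle-like features, and the comparison asks which genes differ between cells with such a fusion and cells with raised SRF alone.

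CArG boxes were looked up in the promoters of called genes because SRF binds this element. RefSeq promoters (GRCh38.p14, 250 bases before to 50 after the gene start) were matched for 160 of the 213 genes called higher and 26 of the 40 called lower, where called means an edgeR adjusted p-value under 0.05. A box was present in 5 of these promoters, and the windows below show it in capitals with 10 bases on each side, on the gene's strand. The first 5 lines are genes called higher and the last 2 are SRF itself.

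ACTG2, chr2:73892925-73892954, plus strand: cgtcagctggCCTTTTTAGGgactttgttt
ACTG2, chr2:73892888-73892917, plus strand: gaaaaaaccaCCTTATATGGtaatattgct
ACTA1, chr1:229434172-229434201, minus strand: tgcccaacacCCAAATATGGctcgagaagg
ACTC1, chr15:34795639-34795668, minus strand: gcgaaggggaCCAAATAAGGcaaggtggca
RPE65, chr1:68449987-68450016, minus strand: agccataactCCTTTTAAGGgatttagaag
SRF, chr6:43171249-43171278, plus strand: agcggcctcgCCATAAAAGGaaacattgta
SRF, chr6:43171229-43171258, plus strand: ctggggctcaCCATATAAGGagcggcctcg

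The boxes of the genes called higher begin 73 and 110 bases before the start of ACTG2, 97 before that of ACTA1, 109 before that of ACTC1 and 52 before that of RPE65. ACTG2, ACTA1 and ACTC1 encode muscle actins, and RPE65 encodes the isomerase of the retinoid cycle. SRF, whose own promoter holds a pair of boxes, is described with the constructs, since its counts include construct reads. The share with a box was 2.5% among promoters of genes called higher (4 of 160), 3.85% among those called lower (1 of 26), 1.14% among those of tested genes (138 of 12153) and 1.29% among all promoters (351 of 27305). With up to 1 mismatch allowed, the shares were 12.5%, 7.69%, 7.73% and 8.34% in the same order. Boxes outside this window were not searched.

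The forkhead motif TGTTTAC, or GTAAACA on the other strand, was present in 3 of the 160 promoters of genes called higher (1.88%), in 0 of the 26 of genes called lower, in 2.45% of those of tested genes and in 3.41% of all promoters. The 3 are shown with 10 bases on each side, since a forkhead factor is the fusion partner. None of them also held a CArG box.

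WNT5B, chr12:1617020-1617046, plus strand: atctcctgccTGTTTACaaaaatgaag
CALD1, chr7:134779539-134779565, plus strand: cctcccgactGTAAACAtaggggatat
SMTN, chr22:31063893-31063919, plus strand: ccttacggtcTGTTTACatacctaatt

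Total counts ran from 21618533 to 29806771 in the 6 libraries. SRF replicate 3 and SRF-FOXO1 replicate 1 stand apart: the quintile of genes with the longest transcripts gave 24.6% and 25.8% of their counts, against 31.9% to 35.7% in the other 4 and 32.1% to 38.4% in the 12 libraries of the remaining groups. SRF replicate 3 also had the highest mitochondrial share, 6.97% against 4.63% to 5.23%. Mesenchymal stem cell markers (NT5E, THY1, ENG, CD44, ITGB1 and ALCAM) summed to between 3619 and 4526 CPM (counts scaled to a common library total) in the SRF libraries and between 3966 and 4181 CPM in those labelled SRF-FOXO1, so these markers were present. Most of the sum was ITGB1 (2302 to 3047 CPM in SRF). THY1 was at 36.8 to 82.4 CPM in SRF and at 106 to 161 CPM in those labelled SRF-FOXO1 (edgeR adjusted p 0.0519). The ranges of the remaining markers overlapped. The neural markers RBFOX3, SOX10 and GFAP summed to 1.22 to 2.22 and 1.30 to 1.85 CPM.

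Counts of the construct genes, SRF and FOXO1, were compared with the labels. SRF was at 1036, 1122 and 678 CPM in libraries 1 to 3 of SRF and at 151, 211 and 183 CPM in those labelled SRF-FOXO1. Vector libraries held 57.3 to 64.4 CPM. The groups do not overlap, and SRF fell by 2.32 on the log2 scale (SE 0.24, edgeR adjusted p 0.00056) between SRF and SRF-FOXO1 while staying above the vector in every library. These counts cannot separate native from construct reads, and a fusion adds reads only for the part of SRF it holds. SRF-PDGFRB libraries held 160 to 337 CPM of SRF, which overlaps those labelled SRF-FOXO1. SRF counts therefore do not check which fusion a library carries.

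FOXO1 was at 13.9, 11.02 and 6.77 CPM in the SRF libraries, at 14.4, 7.63 and 7.36 CPM in those labelled SRF-FOXO1 and at 17.5, 10.9 and 9.45 CPM with the vector. Against SRF, edgeR gave a log2 fold change of -0.07 with an SE of 0.37 and an adjusted p of 0.958, and the groups overlap fully. In all 3 groups replicate 1 is the highest, so FOXO1 counts do not set the libraries labelled SRF-FOXO1 apart and do not check their label. Every direction below is therefore that of the libraries labelled SRF-FOXO1. Partner genes of other fusions were raised in their own libraries. ICA1L was at 120 to 153 CPM in SRF-ICA1L and RELA at 234 to 268 CPM in SRF-RELA. Those labelled SRF-FOXO1 held 8.34 to 10.6 CPM of ICA1L and 85.8 to 88.2 CPM of RELA.

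Against SRF, 253 of 18544 tested genes were called by edgeR, which is 1.36% of them. Of these, 213 were higher in the libraries labelled SRF-FOXO1 (1.15% of tested genes) and 40 were lower (0.216%). The median log2 fold change was 1.47 among the higher genes and -0.82 among the lower ones, and 147 and 14 of them changed by at least 1. In 24 higher genes no SRF library had more than 3 counts, so their fold changes are bounds; with these genes at their bounds the median of the higher genes was the same. The libraries of the 2 groups did not overlap in 212 of the 213 higher and 40 of the 40 lower genes; over all tested genes this held for 5.55% in the higher and 6.5% in the lower direction. At an unadjusted p-value under 0.05, 14.4% of tested genes passed (8.55% higher and 5.89% lower). Of the called higher genes, 195 are protein coding, as are 32 of the lower ones.

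**Figure D1:**
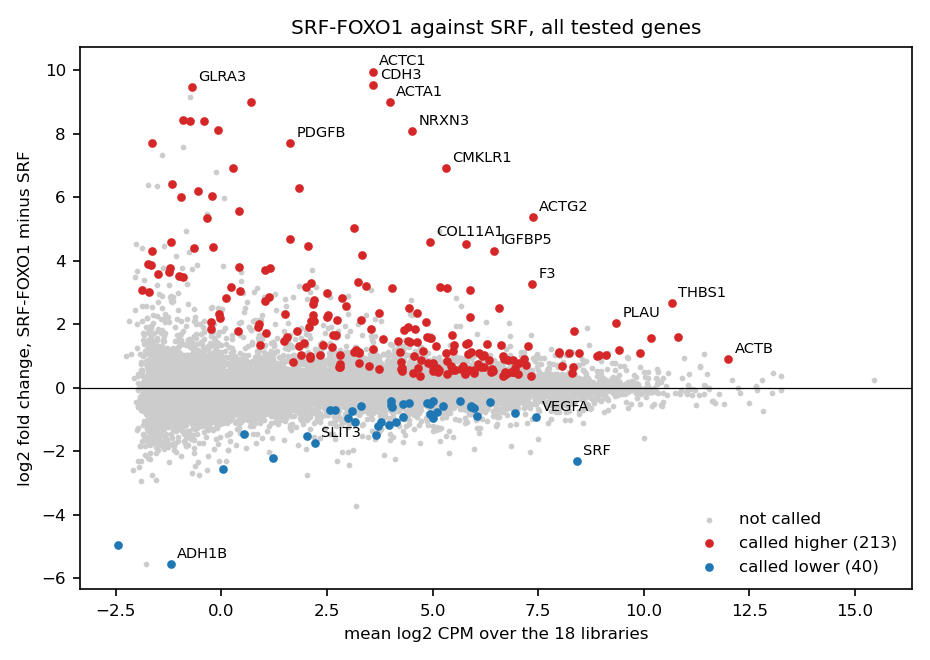
Log2 fold change of the libraries labelled SRF-FOXO1 against SRF for each of the 18544 tested genes (vertical axis) by mean log2 CPM over the 18 libraries (horizontal axis). The 213 genes called higher (red) reach estimated log2 fold changes over 9 at low abundance, while the 40 called lower (blue) lie nearer 0, with a median of -0.82. In 24 of the higher genes no SRF library had more than 3 counts, so only a bound holds, such as at least 445-fold for ACTC1.

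The libraries labelled SRF-FOXO1 differ among themselves in size of response. Replicate 2 was the highest of all 6 libraries in 158 of the 213 higher genes and the lowest in 33 of the 40 lower ones. Replicate 1, which has few counts from long transcripts, was the lowest of its group in 139 of the 213. The group means of 208 higher genes were above the vector mean and those of 37 lower genes were below it. Fewer were called by edgeR against the vector: 104 of the 213 higher genes and 3 of the 40 lower ones, in the same direction. Between the SRF and vector libraries, 1 of the 213 and 3 of the 40 were called.

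Among contractile genes, the smallest p-value was that of ACTG2, the gamma actin of enteric smooth muscle. Its levels were 2.52, 7.08 and 27.4 CPM in the SRF libraries and 396, 590 and 485 CPM in those labelled SRF-FOXO1. All 3 fusion libraries lie above all SRF libraries, by 14.4 times between the nearest ones, and vector libraries held 1.52 to 11.4 CPM. On the log2 scale the difference was 5.37 (SE 0.85, edgeR adjusted p 0.00907), and without SRF replicate 2 the call was lost (edgeR adjusted p 0.0681). In such bulk libraries, more cells with a transcript and more transcript per cell cannot be told apart.

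ACTC1, the cardiac alpha actin, was at 0.0742, 0 and 0.0694 CPM in the SRF libraries and at 2.25, 115 and 29.8 CPM in those labelled SRF-FOXO1. Against the floor of 3 counts in a library, its mean was at least 445-fold higher (edgeR adjusted p 0.0285). ACTA1, the skeletal alpha actin, was at 0.185, 0.0383 and 0.0347 CPM in the SRF libraries and at 2.85, 110 and 13.3 CPM in those labelled SRF-FOXO1 (log2 fold change 8.98, SE 1.68, edgeR adjusted p 0.0186). Both genes are near 0 in every SRF library and above it in all 3 libraries labelled SRF-FOXO1, where replicate 2 is the highest and replicate 1 the lowest. Both calls were lost without SRF replicate 1, SRF replicate 2 or SRF-FOXO1 replicate 2, and ACTC1 also without SRF replicate 3, with edgeR adjusted p-values from 0.0514 to 0.144. Actin genes resemble each other in coding sequence, so counts of the single actins are uncertain. Skeletal muscle regulators stayed at the floor: MYOG and MYF5 had 0 counts in all 6 libraries, and MYOD1 had at most 1 count in any of them.

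The list of smooth muscle contractile genes had 6 of 23 tested members called higher and 0 lower, with 21 of 23 log2 fold changes above 0 and a median of 1.04, against 9066 of 18544 and -0.01 over all tested genes. At an unadjusted p-value under 0.05 in edgeR, 15 members were higher and 0 lower (65.2% of the members tested, against 14.4% of all tested genes), and the DESeq2 Wald test called 10 and 0. The members called included ACTG2, TPM1, CALD1, SMTN and SYNPO2. TPM1, a tropomyosin that runs along actin filaments, was at 661, 638 and 665 CPM in the SRF libraries and at 1102, 2839 and 1608 CPM in those labelled SRF-FOXO1 (log2 fold change 1.57, SE 0.35, edgeR adjusted p 0.0392). CALD1, the thin-filament protein caldesmon, was at 607, 627 and 618 CPM and then at 784, 1774 and 1229 CPM (log2 fold change 1.10, SE 0.25, edgeR adjusted p 0.0393). In both, the SRF libraries are nearly level, and all fusion libraries lie above them, with replicate 1 the nearest and replicate 2 the highest. SYNPO2, an adaptor of actin bundles, was higher by 2.28 on the log2 scale (edgeR adjusted p 0.0306), and SMTN (smoothelin) by 0.99 (edgeR adjusted p 0.0453).

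Canonical markers of differentiated smooth muscle were higher on average but not called. ACTA2, the smooth muscle alpha actin, was at 44.0, 35.9 and 61.3 CPM in the SRF libraries and at 69.6, 348 and 135 CPM in those labelled SRF-FOXO1 (log2 fold change 2.06, SE 0.57, edgeR adjusted p 0.0959). MYH11, the smooth muscle myosin heavy chain, was at 0.705 to 0.918 CPM and then at 1.38, 14.6 and 5.32 CPM (log2 fold change 3.21, SE 0.91, edgeR adjusted p 0.104). TAGLN (transgelin) differed by 1.88 on the log2 scale (SE 0.61, edgeR adjusted p 0.16), with levels of 86.8 to 336 CPM in the SRF libraries and 360 to 1182 CPM in those labelled SRF-FOXO1. Groups do not overlap in these 3 genes, although the gap is narrow, and replicate 2 is the highest each time. CNN1 (calponin) overlapped, at 10.5 to 25.5 CPM and 18.96 to 91.3 CPM (log2 fold change 1.66, SE 0.66, edgeR adjusted p 0.263). MYOCD, the myocardin coactivator, was at 0.371, 3.67 and 1.08 CPM in the SRF libraries and at 0.839, 3.33 and 0.694 CPM in those labelled SRF-FOXO1 (log2 fold change 0.03, SE 1.27, edgeR adjusted p 0.996). With the replicate number as a block in the edgeR fit, ACTA2, MYH11, TAGLN and CNN1 were called higher (adjusted p 0.0361, 0.0312, 0.00215 and 0.00626) and MYOCD was not (adjusted p 0.891); the labels name no source that same-numbered libraries share.

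The counts of called smooth muscle members depended on the fit. With the replicate block, 13 were called higher. Without SRF-FOXO1 replicate 2, 1 member (ACTG2) was called in edgeR. Without SRF replicate 3 and SRF-FOXO1 replicate 1, the libraries with few counts from long transcripts, 10 were called, ACTA2 and TAGLN among them (edgeR adjusted p 0.0344 and 0.0456).

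**Figure D2:**
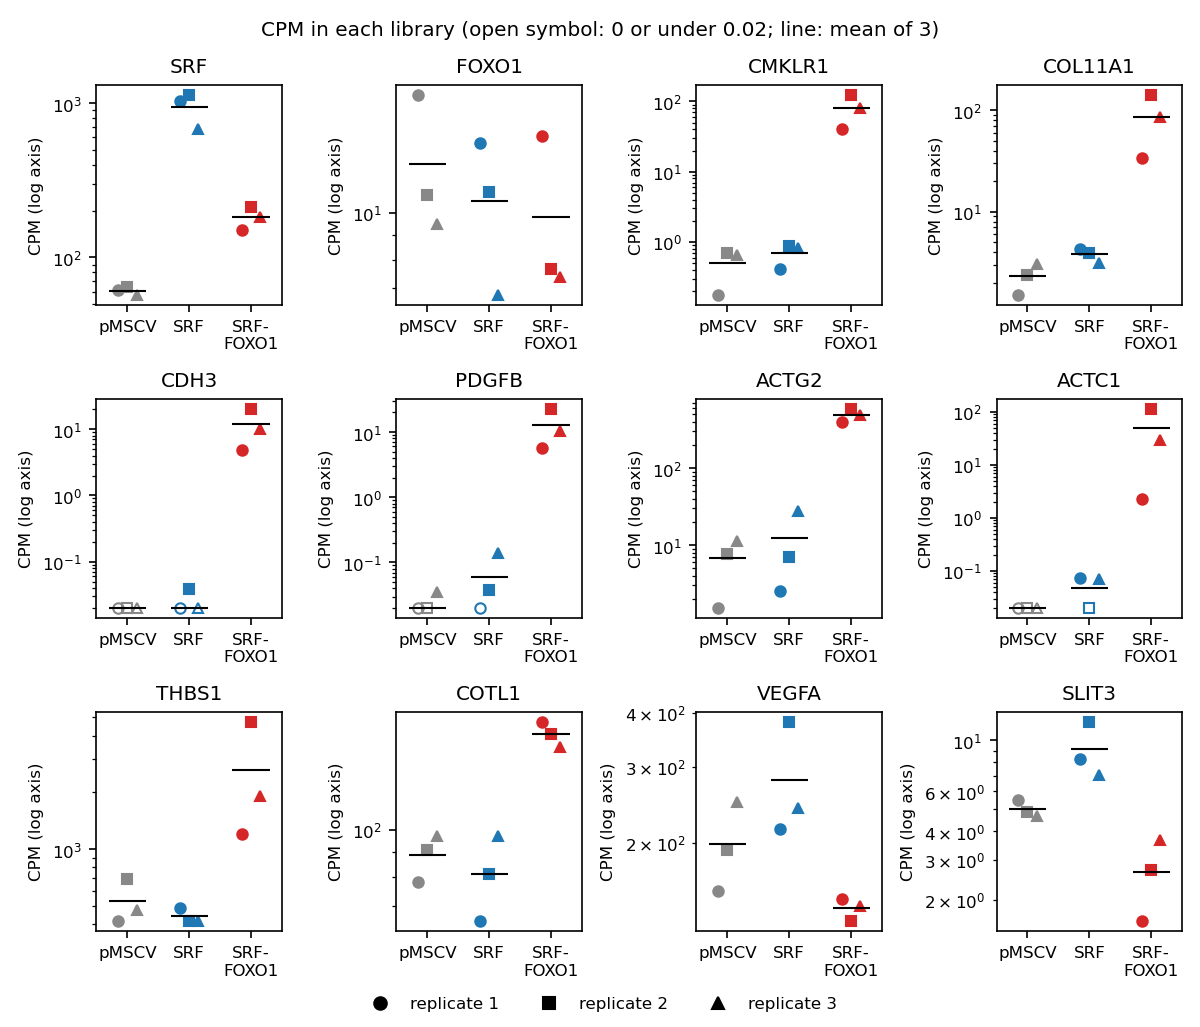
CPM (log axis) of 12 genes in each of the 3 libraries of pMSCV, SRF and SRF-FOXO1, with symbols for the replicate number, an open symbol for 0 or under 0.02 CPM and a line at the mean. In ACTG2, ACTC1, CMKLR1, COL11A1, CDH3 and PDGFB every library labelled SRF-FOXO1 lies above every SRF library, by 7.81 times between the nearest ones in COL11A1 and by more in the other 5, FOXO1 overlaps in all 3 groups, and VEGFA and SLIT3 are lower in every library labelled SRF-FOXO1.

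Of the 32 tested cytoskeletal SRF targets, 4 were called higher and 1, SRF itself, lower, while 1.36% of all tested genes were called. Log2 fold changes were above 0 in 26 of the 32 and the median was 0.43. In edgeR, 17 were higher and 1 lower at an unadjusted p-value under 0.05 (56.25% of members, against 14.4% of all tested genes). By the DESeq2 Wald test, 11 and 1 were called. WDR1, which promotes actin filament disassembly with cofilin, had the least spread: 243, 246 and 270 CPM in the SRF libraries and 384, 405 and 369 CPM in those labelled SRF-FOXO1 (log2 fold change 0.66, SE 0.10, edgeR adjusted p 0.00498). ACTB, the cytoplasmic beta actin, was at 2962, 2714 and 4203 CPM in the SRF libraries and at 5297, 6994 and 5321 CPM in those labelled SRF-FOXO1 (log2 fold change 0.89, SE 0.17, edgeR adjusted p 0.0182). Although ACTB has the smallest gap of these genes between the groups, with SRF replicate 3 nearest to the fusion libraries, they do not overlap. PDLIM5, a PDZ-LIM scaffold, and TUFT1 were higher by 1.12 and 1.84 on the log2 scale (edgeR adjusted p 0.0203 for the first, 0.0439 for the second). VCL (vinculin), a link from integrins to actin, was at 403, 450 and 361 CPM and then at 412, 1203 and 822 CPM, and the groups overlapped (log2 fold change 1.08, SE 0.29, edgeR adjusted p 0.0736, or 0.0126 with the replicate block). Without SRF replicate 3 and SRF-FOXO1 replicate 1, 17 members of the list were called, VCL among them (edgeR adjusted p 0.00648). Without SRF-FOXO1 replicate 2 there were 2, and with the replicate block 13 higher and 1 lower.

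Of 47 striated muscle genes, 20 passed the count filter, with 3 called higher, 0 lower and a median log2 fold change of 0.35. At an unadjusted p-value under 0.05 in edgeR, 7 were higher and 0 lower (35% of the members tested, against 14.4% of all tested genes). The DESeq2 Wald test called 6 and 0. Besides ACTC1 and ACTA1, edgeR called TNNC1, the slow and cardiac troponin C, at an adjusted p-value under 0.05. TNNC1 was at 0 to 0.139 CPM in the SRF libraries and 0.302, 1.41 and 1.39 CPM in those labelled SRF-FOXO1 (log2 fold change 3.58, SE 0.77, edgeR adjusted p 0.0309). These 3 genes were near 0 in the SRF and vector libraries. They passed the filter through fusion libraries and could only be called higher. ANKRD1, a muscle stress protein, had the next largest mean level, 3.19 CPM in SRF and 91.5 CPM in the fusion group, and was not called (log2 fold change 4.94, edgeR adjusted p 0.0555). It was named after its values were seen. The sarcomere genes TTN (log2 fold change 0.07) and NEB (0.13) and the muscle transcription factor gene MEF2C (-0.07) were near 0. They too were named after their values were seen.

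Immediate early genes, the other classical SRF output, were mostly not called: 2 of 31 higher, 0 lower, median log2 fold change -0.11. At an unadjusted p-value under 0.05 in edgeR, 6 were higher and 0 lower (19.4% of the members tested, against 14.4% of all tested genes). The DESeq2 Wald test called 4 and 0. ARC, an activity-regulated cytoskeletal gene, was at 0.222, 0.344 and 0.521 CPM in the SRF libraries and at 1.68, 3.64 and 2.08 CPM in those labelled SRF-FOXO1 (log2 fold change 2.81, SE 0.45, edgeR adjusted p 0.0075). BTG2, an antiproliferative gene, was at 2.22 to 3.30 CPM and then at 4.996 to 5.83 CPM (log2 fold change 1.03, SE 0.23, edgeR adjusted p 0.0364). Both genes are separated between the groups. FOS was at 1114, 24.7 and 631 CPM in the SRF libraries and at 706, 12.1 and 431 CPM in those labelled SRF-FOXO1, with 832, 13.6 and 622 CPM in the vector libraries. EGR1 was at 994, 113 and 418 CPM and then at 626, 74.7 and 396 CPM. Replicate 2 is the lowest of each group in both genes, the spread within a group exceeds any difference between groups, and edgeR gave log2 fold changes of -0.64 for FOS (SE 1.62, adjusted p 0.904) and -0.48 for EGR1 (SE 1.02, adjusted p 0.884). Both genes were lower in each pair of same-numbered libraries of SRF and SRF-FOXO1. With the replicate block they were still not called (edgeR adjusted p 0.216 for FOS and 0.509 for EGR1).

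Known FOXO factors and targets had 1 of 41 tested members called higher and 0 lower, with 19 log2 fold changes above 0 and a median of -0.07. At an unadjusted p-value under 0.05 in edgeR 6 were higher and 8 lower (34.1% of the members tested, against 14.4% of all tested genes), and the DESeq2 Wald test called 3 and 3. With the replicate block, edgeR called 5 higher and 8 lower. The member called was GADD45B, a stress-response gene of the GADD45 family, at 14.1, 11.9 and 17.9 CPM in the SRF libraries and 20.7, 41.9 and 29.2 CPM in those labelled SRF-FOXO1 (log2 fold change 1.12, SE 0.22, edgeR adjusted p 0.0204). Every fusion library lies above every SRF library, by 1.15 times between the nearest. Without SRF replicate 3 and SRF-FOXO1 replicate 1, 10 members were called, 4 higher and 6 lower, and without SRF-FOXO1 replicate 2 none was (edgeR in both cases). In the promoters of the list, 4 of 39 (10.3%) hold the forkhead motif.

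**Figure D3:**
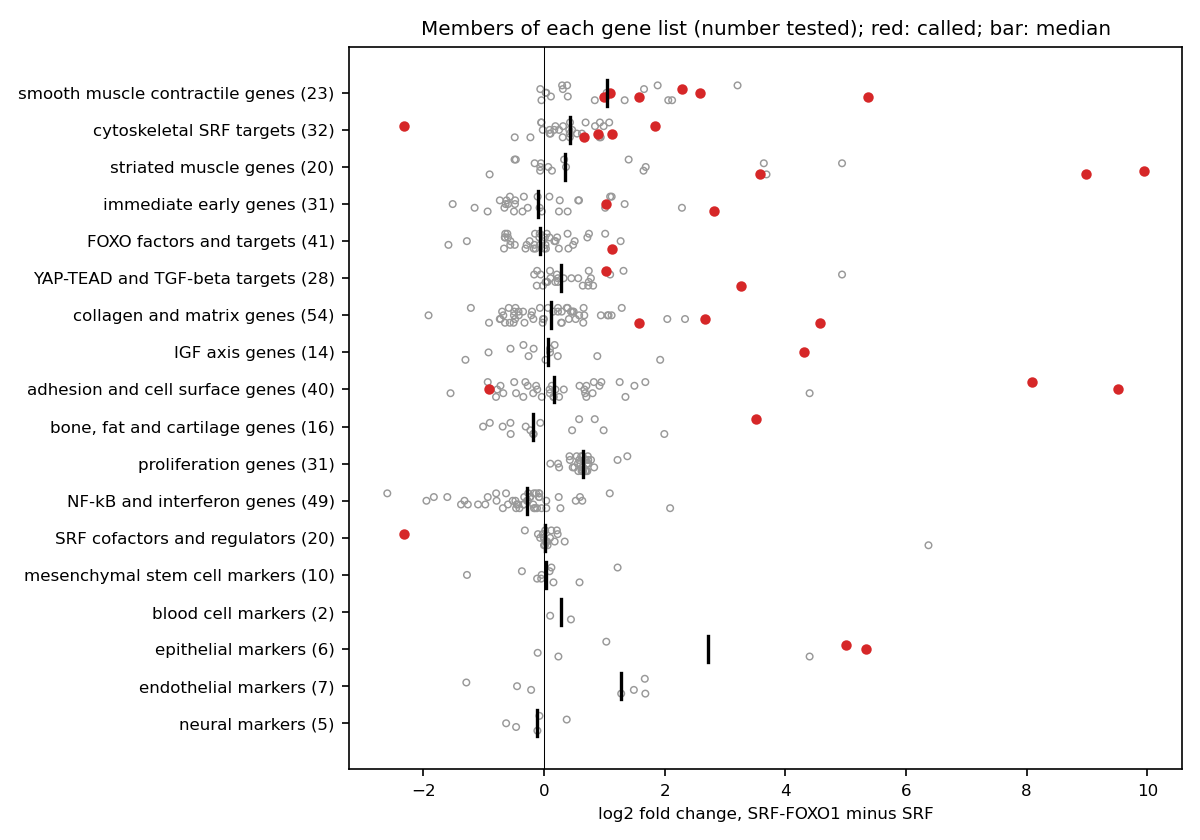
Log2 fold change (horizontal axis) of every tested member of 18 gene lists, with the number tested in brackets, called members in red and the list's median as a bar. The smooth muscle list has a median of 1.04 with 6 called members, while the FOXO list is centred at -0.07 with 1.

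CMKLR1, the G protein-coupled receptor of the chemoattractant chemerin, had the smallest p-value of the genes called higher. It was at 0.408, 0.880 and 0.833 CPM in the SRF libraries, at 0.177 to 0.688 CPM with the vector, and at 41.1, 122 and 80.7 CPM in those labelled SRF-FOXO1. The lowest fusion library was 46.7 times the highest SRF library. On the log2 scale the difference was 6.91 (SE 0.68, edgeR adjusted p 0.00056), and CMKLR1 was also the 1 gene called when only the SRF and SRF-FOXO1 libraries entered the fit (edgeR adjusted p 0.0241).

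Genes of growth factor signalling and coagulation followed. PDGFB, the B chain of platelet-derived growth factor, was at 0, 0.0383 and 0.139 CPM in the SRF libraries and at 5.64, 22.8 and 10.4 CPM in those labelled SRF-FOXO1 (log2 fold change 7.71, SE 1.06, edgeR adjusted p 0.00372). F3, the membrane-bound tissue factor that starts coagulation, was at 38.1, 42.6 and 85.9 CPM in the SRF libraries and at 324, 659 and 540 CPM in those labelled SRF-FOXO1 (log2 fold change 3.26, SE 0.51, edgeR adjusted p 0.00776). IGFBP5, an insulin-like growth factor binding protein, was at 7.01, 4.17 and 3.54 CPM and then at 85.9, 39.5 and 163 CPM (log2 fold change 4.31, SE 0.61, edgeR adjusted p 0.00498). In IGFBP5, replicate 2 is the lowest of the fusion libraries, unlike in most called genes. F3 and IGFBP5 lost the call without SRF replicate 2 (edgeR adjusted p 0.0677 and 0.0550), and F3 also without SRF replicate 1 (0.0620).

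In the matrix, COL11A1, a fibrillar collagen chain of cartilage and of activated stroma, was at 4.34, 3.90 and 3.16 CPM in the SRF libraries and at 33.9, 139 and 85.7 CPM in those labelled SRF-FOXO1 (log2 fold change 4.58, SE 0.51, edgeR adjusted p 0.00149). THBS1 (thrombospondin 1), a secreted activator of latent TGF-beta, was at 487, 415 and 414 CPM and then at 1208, 4729 and 1924 CPM (log2 fold change 2.66, SE 0.45, edgeR adjusted p 0.0103). TIMP3, an inhibitor of matrix metalloproteinases, was at 873, 494 and 888 CPM and then at 1839, 2357 and 2310 CPM (log2 fold change 1.58, SE 0.29, edgeR adjusted p 0.0147). The groups are apart in each, most widely in COL11A1. These 3 were the members called among 54 tested collagen and matrix genes, with 0 lower and a median log2 fold change of 0.11; at an unadjusted p-value under 0.05 in edgeR 8 were higher and 7 lower (27.8%, against 14.4% of all tested genes), and the DESeq2 Wald test called 5 and 3. With the replicate block, edgeR called 6 higher and 4 lower. Without SRF replicate 3 and SRF-FOXO1 replicate 1, 6 members were called higher and 4 lower.

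At the cell surface, CDH3 (P-cadherin) had 1 count among the 3 SRF libraries and was at 4.87, 20.4 and 10.1 CPM in those labelled SRF-FOXO1, at least 107-fold higher against the floor of 3 counts in a library (edgeR adjusted p 0.00217). NRXN3 (neurexin 3), a synaptic adhesion protein, was at 0.0742, 0.0765 and 0.347 CPM and then at 7.78, 103 and 20.5 CPM (log2 fold change 8.08, SE 1.24, edgeR adjusted p 0.00756). TENM2, a teneurin that binds across cell contacts, was at 4.63 to 6.53 CPM in the SRF libraries and at 26.6, 218 and 108 CPM in those labelled SRF-FOXO1 (log2 fold change 4.53, SE 0.76, edgeR adjusted p 0.0117). All 3 genes are far apart between the groups, and replicate 1 is the lowest fusion library each time. ITGB8, an integrin subunit that activates TGF-beta, was at 22.1 to 26.2 CPM in the SRF libraries and at 10.0 to 16.1 CPM in those labelled SRF-FOXO1, and it fell by 0.91 on the log2 scale (SE 0.19, edgeR adjusted p 0.0292). CDH3, NRXN3 and ITGB8 were the called members of 40 tested adhesion genes, whose median was 0.16, while 1.36% of all tested genes were called. Members of this list went both ways. In edgeR, 10 were higher and 6 lower at an unadjusted p-value under 0.05 (40%, against 14.4% of all tested genes). By the DESeq2 Wald test, 5 and 2 were called.

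Other genes with large changes were NIPAL4, a magnesium transporter of keratinocytes (log2 fold change 4.69, SE 0.81, edgeR adjusted p 0.012), and RPE65 (log2 fold change 6.27, SE 1.18, edgeR adjusted p 0.0242), which was at 1.11, 17.5 and 6.198 CPM in those labelled SRF-FOXO1 and at most 0.148 CPM in SRF. PPARG, the adipocyte nuclear receptor, was at 0.115 to 0.185 CPM in the SRF libraries and at 0.570, 3.17 and 1.16 CPM in those labelled SRF-FOXO1 (log2 fold change 3.52, SE 0.73, edgeR adjusted p 0.0269). It was the called member of 16 tested genes in a list of 31 bone, fat and cartilage genes. In edgeR, 4 members were higher and 1 lower at an unadjusted p-value under 0.05 (31.25%, against 14.4% of all tested genes). At its level in SRF, PPARG could hardly be called lower. GLRA3, a glycine receptor subunit, had 0 counts in the SRF and vector libraries and was at 1.11, 6.03 and 2.45 CPM in those labelled SRF-FOXO1, at least 29.04-fold higher against the floor (edgeR adjusted p 0.0101).

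The basal keratins KRT14 and KRT17 were also called higher, 2 of the 6 tested members of a list of 11 epithelial markers. Over all tested genes 1.36% were called. Log2 fold changes were above 0 in 5 of the 6, with a median of 2.72, or 1.72 with bounds in place of estimates. In edgeR, 3 were higher and 0 lower at an unadjusted p-value under 0.05 (50%, against 14.4% of all tested genes). Members near 0 in SRF, such as KRT14, could only be called higher. KRT17 was at 0.297, 0.306 and 0.903 CPM in the SRF libraries and at 3.79, 30.8 and 11.8 CPM in those labelled SRF-FOXO1 (log2 fold change 5.01, SE 1.02, edgeR adjusted p 0.0285). KRT14 was at 0 to 0.111 CPM and then at 0.537, 6.89 and 1.39 CPM, at least 26.7-fold higher against the floor (edgeR adjusted p 0.0204). KRT5, their usual partner, had 0 counts in all 6 libraries, and EPCAM had at most 16. CDH1 was at 0 to 0.0694 CPM in SRF and at 0.0671 to 1.14 CPM in the fusion group (edgeR adjusted p 0.0555). EPCAM, CDH1, KRT5, KRT8 and KRT14 summed to 27.0 to 50.4 CPM in SRF and 38.1 to 60.6 CPM in the fusion group. Most of that sum was KRT8, at 26.6 to 49.7 CPM in SRF and 36.9 to 52.3 CPM in the fusion group.

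Endothelial genes had 0 of 7 tested members called by edgeR, with 4 of 7 log2 fold changes above 0 and a median of 1.28. At an unadjusted p-value under 0.05 and by the DESeq2 Wald test, 2 were higher and 1 lower. The whole list of 9 summed to 94.6, 119 and 105.4 CPM in the SRF libraries and to 139, 362 and 277 CPM in those labelled SRF-FOXO1, so the sum was higher in every fusion library. Most of it was TEK, the angiopoietin receptor, with a mean of 78.4 CPM in SRF and 237 CPM in the fusion group (log2 fold change 1.67, SE 0.49, edgeR adjusted p 0.114). PECAM1, an endothelial adhesion molecule, went the other way, from 14.8 to 28.0 CPM in the SRF libraries to 4.31 to 12.5 CPM (log2 fold change -1.29, SE 0.38, edgeR adjusted p 0.118). CDH5 and VWF, which define endothelial cells, reached at most 0.744 and 1.37 CPM in the 6 libraries. TEK and PECAM1 were named after their values were seen. The part of endothelial cells in these values was not tested.

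The 40 genes called lower changed less. VEGFA, the vascular endothelial growth factor, was at 215, 381 and 241 CPM in the SRF libraries and at 148, 132 and 143 CPM in those labelled SRF-FOXO1 (fell by 0.94 on the log2 scale, SE 0.21, edgeR adjusted p 0.0401). With a correction for transcript length its edgeR adjusted p-value was 0.0605. ANGPT1, the ligand of the endothelial receptor TEK, was at 18.7, 28.2 and 18.2 CPM and then at 9.63, 9.12 and 10.8 CPM (fell by 1.09, SE 0.23, edgeR adjusted p 0.0292). Both genes are lower in every fusion library, but their vector levels, 155 to 249 CPM for VEGFA and 10.6 to 17.8 CPM for ANGPT1, overlap those of SRF for VEGFA and reach down to those of the fusion group for ANGPT1. SLIT3, a secreted guidance factor, was at 8.31, 12.1 and 7.05 CPM and then at 1.61, 2.70 and 3.65 CPM (fell by 1.74, SE 0.37, edgeR adjusted p 0.0289). The transcription factor genes CREB5 and GLIS1 fell by 1.504 and 0.96 on the log2 scale (edgeR adjusted p 0.0395 and 0.0403).

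Further lower genes were ARHGAP28, a GTPase-activating protein (fell by 1.21, edgeR adjusted p 0.0147), ST8SIA4, a polysialyltransferase (fell by 1.07, edgeR adjusted p 0.025), and AKR1C1, an aldo-keto reductase with close paralogues whose counts are uncertain (fell by 0.96, edgeR adjusted p 0.0321). The pseudogene GBP1P1 fell by 1.53 (edgeR adjusted p 0.0468) and the antisense gene KLRK1-AS1 by 1.08 (edgeR adjusted p 0.0353). Their counts are uncertain as well, since the use of strand in counting is not given in the sources used here. Of the 12 lower genes named by size of change, SRF alone stayed called whichever of the 6 libraries was left out. GBP1P1 lost it in each of the 6 fits (edgeR adjusted p 0.0530 to 0.182).

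The remaining lists are given by their counts, medians and sums. Proliferation genes had log2 fold changes above 0 in 31 of 31 tested members with a median of 0.64. At an unadjusted p-value under 0.05, 3 were higher and 0 lower (9.68% of the members tested, under the 14.4% of all tested genes), and the DESeq2 Wald test called 1, as did edgeR with the replicate block. Their summed level followed single libraries, at 768, 839 and 1951 CPM in the SRF libraries and at 1616, 896 and 2640 CPM in those labelled SRF-FOXO1, and these ranges overlap, although the sum was higher in 3 of 3 pairs of same-numbered libraries. NF-kB and interferon genes had 9 of 49 above 0 and a median of -0.28, with 1 higher and 4 lower at an unadjusted p-value under 0.05 (10.2%, also under 14.4%) and 0 by the DESeq2 Wald test. Their sums were 2635, 2453 and 2538 CPM in the SRF libraries and 2304, 1373 and 1552 CPM in those labelled SRF-FOXO1, while the vector libraries ran from 1357 to 3882 CPM. Mesenchymal stem cell markers had 0 of 10 tested members called (median 0.03), with 1 higher and 1 lower at an unadjusted p-value under 0.05 and by the DESeq2 Wald test, and sums of 4381 to 5261 CPM in the SRF libraries and 4470 to 4847 CPM in those labelled SRF-FOXO1. Blood and neural markers had 0 of 2 and 0 of 5 called, with 0 at an unadjusted p-value under 0.05 and by the Wald test. The blood list had a median of 0.27 and sums of 2.26 to 4.10 CPM in SRF and 2.18 to 3.88 CPM in the fusion group. The neural list had a median of -0.11 and sums of 9.03 to 14.3 CPM and 8.84 to 11.7 CPM. Among SRF cofactors and regulators, 1 of 20 tested genes was called, SRF itself, and the median was 0.02. At an unadjusted p-value under 0.05 in edgeR, 1 of them was higher and 1 lower (10%). The YAP-TEAD and TGF-beta targets had 2 of 28 called higher, F3 among them. Their log2 fold changes were above 0 in 23 of 28, with a median of 0.28. In edgeR, 9 were higher and 0 lower at an unadjusted p-value under 0.05 (32.1%, against 14.4% of all tested genes). The IGF axis genes had 1 of 14 called, IGFBP5, with a median of 0.06, and 2 higher and 0 lower at that p-value (14.3%). F3 and IGFBP5 are described above. With the replicate block, edgeR called 8 YAP-TEAD and TGF-beta targets, 6 striated muscle genes and 7 immediate early genes higher, with 1 immediate early gene lower, and 10 adhesion genes higher and 4 lower.

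Transcript length was checked because SRF replicate 3 and SRF-FOXO1 replicate 1 fall on opposite sides of the comparison. In both libraries genes with long transcripts were low: the median deviation from the mean of all libraries in the longest quintile of genes was -0.33 and -0.24 on the log2 scale, against -0.06 to 0.06 in the other 4. Calls were found in every quintile of length, from 0.693% of the shortest genes to 1.75% and 1.72% of the 2 longest quintiles. The median length of the longest transcript was 3657 bases for genes called higher and 3648 for genes called lower, against 3057 for all tested genes. A spline of each library's deviation on transcript length was then removed within the fit. This gave 333 calls, 1.8% of tested genes, with 257 higher and 76 lower, so the share of higher genes went from 84.2% to 77.2%.

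Of the 253 genes, 237 kept the call (202 higher and 35 lower), and 0 changed direction. The 16 that lost it include SMTN (edgeR adjusted p 0.0519), VEGFA and the lower gene FLRT2, an adhesion and guidance receptor named after its values were seen. The correction added 96 calls, 55 higher and 41 lower, with VCL among them (edgeR adjusted p 0.0438). In the longest quintile, calls went from 46 higher and 16 lower to 70 and 28. COL11A1, NRXN3, TENM2 and SLIT3, with transcripts of 7327 to 9706 bases, kept log2 fold changes of 4.52, 7.93, 4.38 and -1.75.

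**Figure D4:**
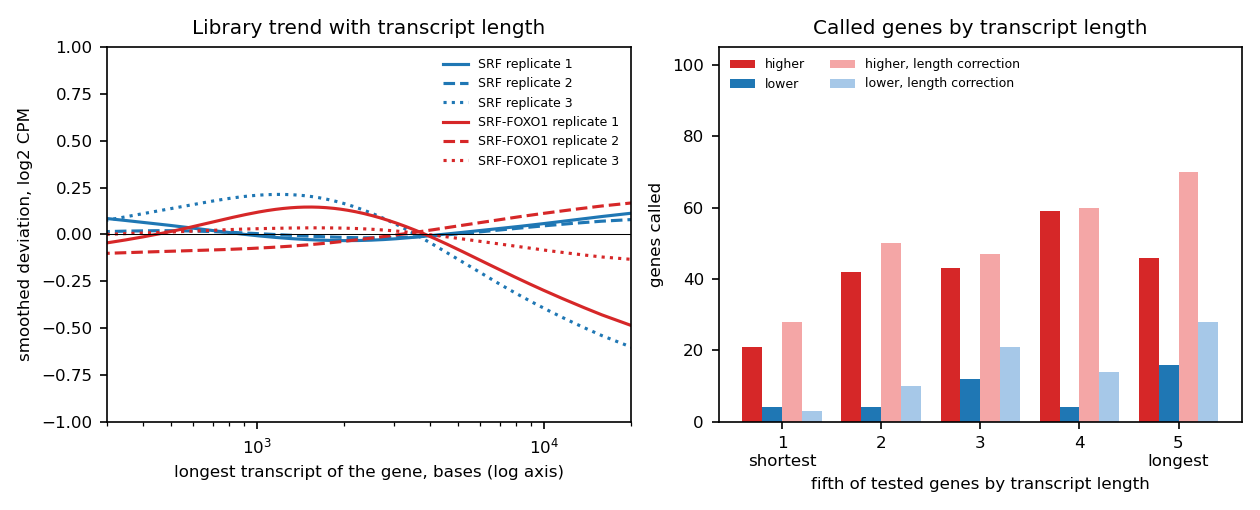
Left, smoothed deviation of each of the 6 libraries from the mean of all libraries (log2 CPM) by length of the gene's longest transcript (log axis); SRF replicate 3 and SRF-FOXO1 replicate 1 drop at long transcripts. Right, number of genes called in each quintile of transcript length, before and after the length correction: the longest quintile goes from 46 higher and 16 lower to 70 and 28.

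The number of calls depended on which libraries entered. Leaving out either of the 2 libraries with few counts from long transcripts raised it, to 859 without SRF replicate 3 and 628 without SRF-FOXO1 replicate 1, and without both it was 1033 (669 higher, 364 lower), of which 231 were among the 253. Leaving out other libraries lowered it, to 39 without SRF replicate 1, 20 without SRF replicate 2, 69 without SRF-FOXO1 replicate 2 and 175 without SRF-FOXO1 replicate 3. With all libraries and the replicate number as a block it was 1341 (910 higher, 431 lower). In each of these 6 fits without 1 library, 18 genes were called, 17 higher and 1 lower, which was SRF. Those higher included CMKLR1, COL11A1, FGF1, PTER, HSPA2, COTL1, CDH3, CTPS1, EMB, TPD52L1, SH3BGRL2, PDGFB, SLC25A22, CENPV and NES. Those not discussed above were named after their values were seen. Of these, PTER was at the vector level in the libraries labelled SRF-FOXO1 (means of 5.63 and 5.82 CPM) and low in SRF (2.29 CPM). Against the vector, edgeR gave PTER an adjusted p of 0.935 in those labelled SRF-FOXO1 and 0.00707 in SRF. Of the 48 named genes called against SRF, 6 were called in every such fit (SRF, CMKLR1, COL11A1, COTL1, CDH3 and PDGFB). Without SRF replicate 2 no other named gene was called, without SRF replicate 1 there were 11 and without SRF-FOXO1 replicate 2 there were 17.

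**Figure D5:**
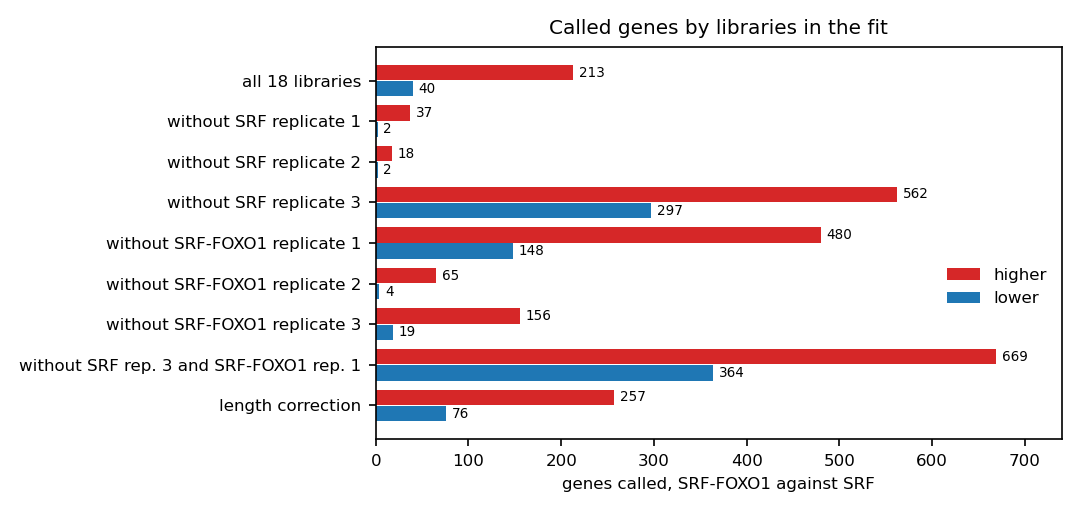
Number of genes called higher (red) and lower (blue) in the libraries labelled SRF-FOXO1 against SRF (horizontal axis) with all 18 libraries, without each of the 6 libraries in turn, without both libraries with few counts from long transcripts, and with the length correction. The count runs from 18 higher and 2 lower without SRF replicate 2 to 669 and 364 without both libraries.

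To see where the libraries labelled SRF-FOXO1 differ from other SRF fusions, they were compared with the mean of SRF-ICA1L, SRF-PDGFRB and SRF-RELA. This contrast sets no SRF or vector library against them, but it holds the same 3 SRF-FOXO1 libraries. It came from the fit to all 18 libraries, so SRF and vector libraries entered the filter, the scaling and the estimate of spread. The contrast called 72 genes, 0.388% of those tested: 68 higher (0.367%) and 4 lower (0.0216%). With the 4 fusion groups alone in the fit, 30 were called. Among the 4 lower ones are ICA1L and RELA, partner genes carried by the other fusions (-1.44 and -0.51 on the log2 scale, with edgeR adjusted p-values of 0.000237 and 0.00593). The others were KLRK1-AS1 (-1.01, edgeR adjusted p 0.0427) and FLRT2.

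COTL1, a coactosin that binds filamentous actin, was among the genes with the smallest p-values. It was at 65.2, 81.4 and 97.0 CPM in the SRF libraries and at 165, 157 and 147 CPM in those labelled SRF-FOXO1, with little spread, and edgeR gave 0.99 on the log2 scale against SRF (SE 0.13, adjusted p 0.00217) and 0.74 against the other fusions (SE 0.10, adjusted p 0.00593). GLRA3 had at most 1 count (0.0351 CPM) in any library of the other fusions, and ENSG00000288781, a gene without a symbol, differed from them by 3.23 on the log2 scale (edgeR adjusted p 0.00593 for each). Several genes described above were higher than the mean of the other fusions too: COL11A1 (2.37, SE 0.32, edgeR adjusted p 0.00812), PDGFB (3.72, SE 0.53, edgeR adjusted p 0.00858), F3 (2.31, SE 0.35, edgeR adjusted p 0.011) and ACTC1 (5.74, SE 0.97, edgeR adjusted p 0.0266). CMKLR1 was at 1.91 (SE 0.37, edgeR adjusted p 0.0427).

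A difference from this mean does not mean a difference from each fusion, and the single fusions were not tested. CMKLR1 was at 1.67 to 2.89 CPM in the SRF-PDGFRB libraries, but at 38.8, 104 and 70.6 CPM in SRF-ICA1L and at 34.8, 116 and 71.1 CPM in SRF-RELA. These last 2 groups overlap the 41.1, 122 and 80.7 CPM of the libraries labelled SRF-FOXO1 over most of their range. ACTC1 was at 1.82, 42.7 and 9.11 CPM in SRF-RELA, which overlaps those labelled SRF-FOXO1, and at 0.0343 to 1.002 CPM in the other 2 groups. COL11A1 overlapped with SRF-RELA as well (35.6, 62.7 and 42.2 CPM) and with SRF-ICA1L (23.2, 44.6 and 40.7 CPM), while SRF-PDGFRB held 2.33 to 4.39 CPM. PDGFB and F3 did not overlap: SRF-RELA came nearest, with at most 4.89 CPM of PDGFB and 242 CPM of F3.

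In contrast, ACTG2 (2.31, SE 0.52, edgeR adjusted p 0.096), CDH3 (2.31, SE 0.62, edgeR adjusted p 0.185), IGFBP5 (0.16, SE 0.42, edgeR adjusted p 0.895), TIMP3 (0.06, SE 0.23, edgeR adjusted p 0.925) and SRF (-0.60, SE 0.19, edgeR adjusted p 0.241) were not called against the other fusions. A missed threshold does not show that the fusions act alike on them. The smooth muscle, cytoskeletal, collagen and FOXO lists had medians of 0.36, 0.20, -0.15 and -0.09 in this comparison, against 0.02 over all tested genes. Called members were 0 of 23, 0 of 32, 1 of 54 and 2 of 41 in the same order, against 0.388% of all tested genes. GADD45B, of the FOXO list, was higher than the other fusions by 0.93 on the log2 scale (SE 0.17, edgeR adjusted p 0.0246). Without SRF-FOXO1 replicate 2, 4 genes were called (ICA1L, RELA, GLRA3 and UNC5D, a netrin receptor named after its values were seen). Without SRF-FOXO1 replicate 1 there were 193.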

How the data were processed

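RNA of 18 MSC-hTERT libraries was sequenced from stranded mRNA libraries on a NovaSeq system, per the labels' protocols. The authors deposited 1 table of raw read counts per gene, per the file headers. The submitters' processing notes name FastQC, Trimmomatic, HISAT2, featureCounts and the GRCh38 genome. The annotation release and the strand setting are not given in the sources used here, so counts of antisense, overlapping and near-identical genes are uncertain.

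The table holds 61487 identifiers, and 61369 took a symbol from a table of gene names, 105 from GENCODE and 13 none. Transcript length is that of the longest GENCODE transcript, found for 58312. CPM is a library's counts over its total. Totals of 19362319 to 29806771 give a floor of 3 counts, or 0.101 to 0.155 CPM, which covers counting error only. A fold change against a group at or under the floor is a bound.

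Calls came from edgeR 4.0.16 in R 4.3.3: filterByExpr (minimum count 10), TMM, robust quasi-likelihood fit to all 18 libraries with 1 coefficient per group (12 residual degrees of freedom, common coefficient of variation 0.225), two-sided F test, Benjamini-Hochberg adjustment over 18544 genes, adjusted p under 0.05. The standard error is the absolute log2 fold change over the square root of F. The fit was tested on simulated data. The length correction uses a spline with 5 degrees of freedom as an offset.

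Named genes are SRF, FOXO1, called members of 18 gene lists, up to 12 higher and 12 lower called genes with the largest change (a symbol, mean log2 CPM not under 1, groups not overlapping), 10 fixed muscle and immediate early genes, and up to 5 called genes with the smallest p against the other fusions. The lists hold 489 symbols, some of them in more than 1 list. A few called genes are counted but not reported by name here. The comparison, the lists and the rule were chosen with earlier results of these data known. DESeq2 1.42.0 and limma 3.58.1 gave alternatives.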

Additional observations from a re-analysis of the deposited data

How the results depend on the processing

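Scaling by DESeq2 size factors or total count, dropping the count filter, requiring 10 counts in every library and the length correction left the count of genes called against SRF within 1.5 times of 253 (182 to 333). By total count the split was 192 higher and 60 lower (76.2% higher against 84.2%). The DESeq2 Wald test called 719, limma voom with sample weights 1930, and a log2 change of at least 1 left 161. With only the 2 groups compared, 1 gene was called (1294 at an unadjusted p-value under 0.05). Leaving out 1 library gave 20 to 859, and leaving out both libraries with few counts from long transcripts 1033.

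Against the other 3 fusions (72), the Wald test called 198, voom 272, at least 10 counts in every library 27, the 4 fusion groups alone 30, fits without 1 library 4 to 193, and without both of those libraries 245. Of the 48 named genes called, 1 was called in the 2-group fit and 6 to 45 without 1 library. The 29 called list members were 77 without both of those libraries and 10 without SRF-FOXO1 replicate 2, 2 alternatives chosen after seeing the data. The share of promoters with a CArG box went from 2.5% to 12.5% with 1 mismatch.

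The replicate numbers share no source in the labels. Same-numbered libraries of SRF and SRF-FOXO1 correlated at 0.09, 0.38 and 0.24 in their deviations from group means, with SRF-FOXO1 replicate 1 closest to SRF replicate 3 (0.14). With the length correction they correlated at 0.14, 0.35 and 0.25, each library closest to its own number (replicates 1 and 3 at 0.07), a hint of pairing from the data and not the design. The replicate block gave 1341 calls (910 higher, 431 lower), all 253 among them, and 294 against the other fusions. With the length correction as well it gave 1792 and 405.

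Direction changed only in named genes without a call. With voom, EGR1 went to 0.43 and FOS to 1.41. Without 1 library, EGR1 ran from -1.09 to 0.46, FOS from -1.41 to 0.22, FOXO1 from -0.43 to 0.18 and MYOCD from -1.13 to 1.22. MYOCD was at -0.066 by total count, -0.82 with voom, -0.000207 without a filter and -0.023 with the length correction. The cause of these changes was not tested. With 3 libraries a group, genes near the floor are limited by depth: 24 of the 213 higher genes have bounds only.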

Other observations

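Several called genes outside the naming rule encode signalling proteins or enzymes, and all in this section were chosen after their values were seen. FGF1, a fibroblast growth factor, was at 5.10 CPM on average in the SRF libraries and 43.0 CPM in those labelled SRF-FOXO1 (log2 fold change 3.14, edgeR adjusted p 0.00172). EDN1, the precursor of the vasoconstrictor endothelin 1, was higher by 2.77 on the log2 scale (edgeR adjusted p 0.0108), HBEGF, an EGF receptor ligand, by 1.46 (0.0147), and the WNT ligands WNT5B and WNT16 by 1.45 (0.0132) and 1.86 (0.0189). PLAU, the urokinase plasminogen activator, went from a mean of 389 to 1505 CPM (2.04, edgeR adjusted p 0.0289). CD70 and TNFSF9, members of the TNF ligand family, were higher by 3.71 and 2.27 on the log2 scale (edgeR adjusted p 0.00692 for the first, 0.00907 for the second), and CD274, the immune checkpoint ligand, by 1.54 (edgeR adjusted p 0.0392). Each of these genes was higher in 3 of 3 pairs of same-numbered libraries. All 213 genes called higher were, so this adds nothing to the calls.

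Among enzymes and transporters, SLC7A5, an amino acid transporter, had a mean of 9.04 CPM in the SRF libraries and 75.7 CPM in those labelled SRF-FOXO1 (log2 fold change 3.16, edgeR adjusted p 0.00756). PSAT1, of serine synthesis, was higher by 1.92 on the log2 scale (edgeR adjusted p 0.0193), MTHFD2, of mitochondrial folate metabolism, by 1.58 (0.0289), CTPS1, which makes CTP, by 1.12 (0.00252) and MARS1, the methionyl-tRNA synthetase, by 0.48 (0.0292). CAVIN1 and CAV2, components of caveolae, were higher by 1.18 and 1.34 (edgeR adjusted p 0.0112 for the first, 0.0258 for the second). ADH1B, an alcohol dehydrogenase, was at 1.08, 1.87 and 1.597 CPM in the SRF libraries and at 0, 0 and 0.0925 CPM in those labelled SRF-FOXO1, at least 12.7-fold lower against the floor of 3 counts in a library (edgeR adjusted p 0.0236).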
